A study of Rattus norvegicus with 6 samples.

Results

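Of the 1191 mature miRNA IDs listed for these rat heart libraries, 699 carry miRBase names, and the 108 described here are those whose number after miR- is 1000 or above. They were chosen by their number, 1 row per ID with the highest count over all isoforms. The rule leaves out miR-1949 and both arms of miR-3068, which also have such numbers. Had these been counted, 2 would have been called higher. The members were chosen with earlier results of these data known. Their levels were compared between 3 hearts subjected to ischemia-reperfusion, made by tying the left anterior descending coronary artery for 0.5 h and then allowing reperfusion for 0.5 h, and 3 normal hearts listed as control. The labels give all 6 rats the genotype WT and name neither strain, age nor sex, nor the part of the heart taken. The hearts are numbered with no other identity, so each p-value reflects how much these particular hearts varied.

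MiRNAs are short RNAs cut from hairpin precursors by Drosha and Dicer, with a 5p arm and a 3p arm, and they recognise target RNAs mainly through the seed, bases 2 to 8 from the 5′ end. MiRBase gives numbers in the order of discovery, so high numbers mark miRNAs named late, often from deep sequencing and often at low levels. Some of them overlap other RNA classes, such as the small Cajal body-specific RNAs (scaRNAs), which guide the modification of spliceosomal RNAs, or lie on the strand opposite an older miRNA. Of the 108 members, 97 were matched by name to RefSeq, which annotates the miR-1839 hairpin as Scarna15 and the miR-1843a hairpin as Scarna3. The 4 arms of these hairpins held most of the members' counts, and their sequences are shown first for that reason. The mature sequences are those of the deposited table, with the seed in capitals.
miR-1839-5p: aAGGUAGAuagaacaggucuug
miR-1839-3p: aGACCUACuuaucuaccaacag
miR-1843a-5p: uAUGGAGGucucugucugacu
miR-1843a-3p: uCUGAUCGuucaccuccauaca
miR-1843b-5p: aUGGAGGUcucugucugacuuag

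The RefSeq hairpins show where these arms lie, with the mature arms in capitals, on assembly GRCr8. The authors' build was not given in the sources used here, so the positions belong to RefSeq and not to the deposited table. Scarna15 lies at chr1:144893856-144893919 on the plus strand. Scarna3 lies at chr6:104955347-104955436 on the minus strand, within the span of Dcaf5, a substrate receptor of a ubiquitin ligase. Mir1843b lies at chr13:74085000-74085061 on the plus strand, within the span of Cop1, another ubiquitin ligase gene. The gene table gives spans with no exons, so intron and exon cannot be told apart here.
Scarna15: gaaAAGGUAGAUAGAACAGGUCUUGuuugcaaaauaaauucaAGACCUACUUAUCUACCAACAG
Scarna3: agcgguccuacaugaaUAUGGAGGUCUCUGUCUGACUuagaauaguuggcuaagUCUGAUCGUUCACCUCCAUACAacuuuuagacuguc
Mir1843b: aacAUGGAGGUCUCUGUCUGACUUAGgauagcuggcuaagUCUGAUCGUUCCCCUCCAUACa
The listed miR-1843b-5p starts 1 base later than miR-1843a-5p, and bases 1 to 20 of miR-1843b-5p match bases 2 to 21 of miR-1843a-5p exactly. Their seeds therefore differ by a shift, and counts of the 2 miRNAs rest on the same stretch of sequence.

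Other members with enough reads for a test came from hairpins within protein-coding gene spans or between genes. MiR-3559 lies within Zdhhc15, a palmitoyltransferase gene, at chrX:73660128-73660242 on the minus strand. MiR-6329 lies within Rdx, which encodes radixin, a linker of actin filaments to the cell membrane, at chr8:61334239-61334329 on the minus strand. MiR-6321 lies within Rufy3 at chr14:19743376-19743516 and miR-1249 within Kiaa0930 at chr7:117955517-117955636, both on the minus strand. MiR-3473 lies within Zranb3, a DNA repair helicase gene, at chr13:42051691-42051757 on the plus strand. MiR-3585, at chrX:151706708-151706825 on the minus strand, lies in no protein-coding gene span of the table. The mature sequences are given below, with the seed in capitals, to identify the members tested. The tests used counts of all isoforms, of which the exact listed sequence was often a small share.
miR-3559-5p: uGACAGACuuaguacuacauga
miR-3559-3p: aUGUAGUAcugagucugucgug
miR-3585-5p: uUCACAAGaaggugucuuucau
miR-3585-3p: uGAACGGCccuuguuguga
miR-6329: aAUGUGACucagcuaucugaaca
miR-6321: uACUGCAGugaguucuaugaagc
miR-3473: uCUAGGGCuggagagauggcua
miR-1249: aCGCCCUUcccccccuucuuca
Bases 5 to 21 of miR-3473 also occur exactly in an entry that the table marks as predicted, so the split of reads between the 2 entries is uncertain. Of the 49 members with counts, 2 share their seed with another named miRNA in the table. They are miR-1843a-3p, which shares CUGAUCG with miR-1843b-3p, and miR-3065-5p, which shares CAACAAA with miR-7a-1-3p.

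The libraries held 1376947, 2186243 and 2814802 counts in ischemia-reperfusion replicates 1 to 3, against 6963312, 8259263 and 8429988 in normal replicates 1 to 3. Depth and group therefore cannot be told apart in what was detected. Predicted entries took 13.6%, 7.87% and 5.46% of the counts in ischemia-reperfusion libraries and 1.29%, 1.09% and 1.18% in normal libraries (two-sided exact permutation test, p = 0.1, which is the lower limit for 3 hearts against 3). The 6 heart muscle miRNAs used as markers summed to between 194924 and 301545 CPM in ischemia-reperfusion hearts. In normal hearts they summed to between 249121 and 442303 CPM. None had 0 counts over the 6 libraries together. CPM are counts per 1000000 counts of a library after TMM scaling. Of the other marker sums, those of endothelium, red cells and liver overlapped between the groups, and the rest did not. In ischemia-reperfusion hearts the sum was lower for leukocytes (489 to 593 CPM, against 601 to 685 in normal hearts), for smooth muscle and fibroblasts (119714 to 125929 CPM, against 126141 to 148391) and for the skeletal muscle marker (311 to 438 CPM, against 460 to 708). The neuronal sum was higher, with 80.9 to 122 CPM in ischemia-reperfusion hearts and 72.9 to 77.3 CPM in normal hearts. No marker of these lists had 0 counts over the 6 libraries together. The part of these markers in the members' levels was not tested. In bulk tissue, fewer cells of a type and less RNA per cell cannot be told apart.

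Most late-numbered miRNAs were absent from the listed counts or present at a few reads. Counts were listed for 49 of the 108 members (45.4%), against 450 of the 588 named miRNAs numbered below 1000 (76.5%). The remaining 59 members had no listed count in any library. The smallest count in the table is 2, so a blank can hide a single read, and it is read here as 0. At least 10 counts in some library were reached by 24 members (22.2%), against 334 miRNAs numbered below 1000 (56.8%). Counts in all 6 libraries were listed for 15 members and for 278 of the lower-numbered miRNAs.

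Among miRNAs with counts, the median of the mean level was 0.626 CPM for the members and 6.50 CPM for those numbered below 1000. The highest mean was 517 CPM, of miR-1843a-5p, against 203939 CPM for the highest lower-numbered miRNA. Within the members, counts were listed for 11 of 21 numbered below 3000, 24 of 62 numbered from 3000 to below 4000, and 14 of 25 numbered 5000 or above. Of the 49 with counts, 29 were listed in both groups, 8 in ischemia-reperfusion libraries alone and 12 in normal libraries alone. The highest count among the 8 was 8, and among the 12 it was 7.

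How many members were seen depended on depth. Without correction, 9, 13 and 11 members reached 10 counts in the ischemia-reperfusion libraries, against 16, 18 and 19 in the normal libraries, and the groups did not overlap. After each library was thinned to 1376947 counts, the numbers were 9, 10 and 8 in ischemia-reperfusion libraries and 9, 9 and 9 in normal libraries. The thinned numbers overlapped (exact permutation test, two-sided p = 1.0). No difference in the number of members reaching 10 counts was detectable at this depth. At 2 counts after thinning, the numbers were 24, 19 and 19 in ischemia-reperfusion libraries and 16, 18 and 19 in normal libraries, which overlapped (exact permutation test, two-sided p = 0.3). Without thinning they were 24, 25 and 27 in ischemia-reperfusion libraries and 27, 29 and 33 in normal libraries, so the order of the group means turned round with thinning.

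The members made up 0.0988%, 0.0871% and 0.0833% of the counts in ischemia-reperfusion libraries and 0.0729%, 0.0987% and 0.116% in normal libraries. The means were 0.0898% ± 0.00808 in ischemia-reperfusion hearts and 0.0958% ± 0.0216 in normal hearts (SD, n = 3 each; exact permutation test, two-sided p = 0.7). The groups overlapped, with the lowest and the highest share both in normal libraries. The 95% Wilson interval ran from 0.0937% to 0.104% in ischemia-reperfusion replicate 1, the shallowest library. Such intervals account for counting error alone, because the reads passed through PCR with no molecular identifiers.

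The 4 arms of the Scarna15 and Scarna3 hairpins held 73.6%, 76.2% and 77.7% of the members' counts in ischemia-reperfusion libraries and 75.8%, 77.2% and 76.8% in normal libraries. With the arms of miR-1843b added, the shares were 84.8%, 87.1% and 87.8% in ischemia-reperfusion libraries and 85%, 87.8% and 87.8% in normal libraries. Neither share differed between the groups beyond their spread (exact permutation tests, two-sided p = 0.7 and 0.5). MiR-1843a-5p alone supplied 53.9%, 54.4% and 54.9% of the members' counts in ischemia-reperfusion libraries and 49.9%, 56.2% and 59.9% in normal libraries. This grouping was chosen after the annotation and the values had been seen.

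**Figure D1:**
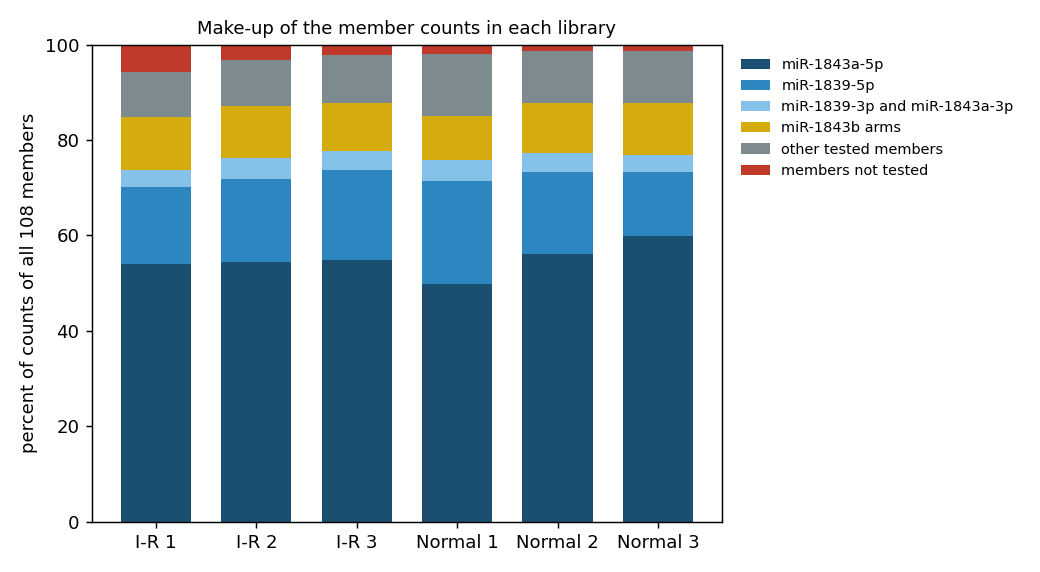
Stacked bars give the percent of the counts of all 108 members that each named group supplied, 1 bar per library (I-R, ischemia-reperfusion). MiR-1843a-5p fills the largest block in each bar, between 49.9% and 59.9%, and members not tested take the thin top block.

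Enough counts for a test remained for 13 members (12%), against 289 miRNAs numbered below 1000 (49.1%). None of the 13 was called higher or lower in ischemia-reperfusion hearts by edgeR's quasi-likelihood test at a Benjamini-Hochberg adjusted p of 0.05. Over all 524 entries tested, 33.4% were called higher and 9.35% lower. At an unadjusted edgeR p under 0.05 the members' count was also 0. At that p it was 75 of the 289 miRNAs numbered below 1000 and 179 of the 219 predicted entries tested. DESeq2 and limma-voom called 0 members, and their shares over all entries are not given here. The smallest adjusted p by edgeR was 0.15, of miR-3585-5p. Calls appeared without ischemia-reperfusion replicate 3, normal replicate 1 or normal replicate 3, and are given with the members they touch. Had the 3 entries that the rule leaves out been counted, 2 would have been called higher, a setting chosen after the values were seen. Among the miRNAs numbered below 1000, 1 was called higher and 42 were called lower (14.5%), and predicted entries supplied 172 of the 175 entries called higher.

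The log2 fold change, ischemia-reperfusion over normal, was negative for 12 of the 13 members and for 247 of the 289 miRNAs numbered below 1000. Its median was -0.42 over the members and -0.40 over the 289 lower-numbered miRNAs, so both groups of miRNAs lay at nearly the same place. The position depended on the scaling. With factors from miRBase-named miRNAs the medians were -0.12 for the members and -0.068 for the lower-numbered miRNAs, and 9 of 13 members were negative. With upper-quartile factors the medians were -0.89 and -0.90, all 13 members were negative, and 5 of them were called lower, where 30.9% of all entries tested were called lower. Without normal replicate 3 the medians were -0.20 for the members and -0.43 for the lower-numbered miRNAs. The 5 called with upper-quartile factors were miR-1839-5p, miR-1843a-5p, miR-1843b-5p, miR-3559-5p and miR-6329.

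**Figure D2:**
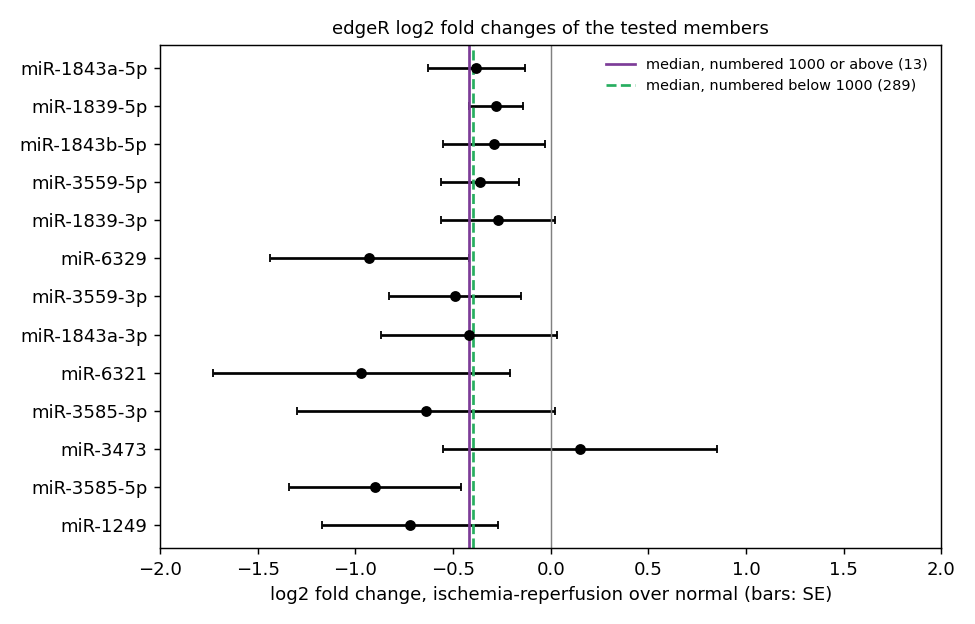
Points give the edgeR log2 fold change of each of the 13 tested members, ischemia-reperfusion over normal, with bars of 1 SE, and lines mark the medians. The members' median of -0.42 lies beside the median of -0.40 of the 289 miRNAs numbered below 1000.

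The libraries of the groups did not overlap for 5 of the 13 members, with every ischemia-reperfusion heart below every normal heart. Over all entries tested, 25.2% showed such a separation downward, and 113 of the 289 miRNAs numbered below 1000 did (39.1%). The 5 were miR-1839-5p, miR-3559-5p, miR-3559-3p, miR-3585-5p and miR-1249. No tested member was separated upward. A share of 5 in 13 is near that of the lower-numbered miRNAs, and none of the 5 passed the test.

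**Figure D3:**
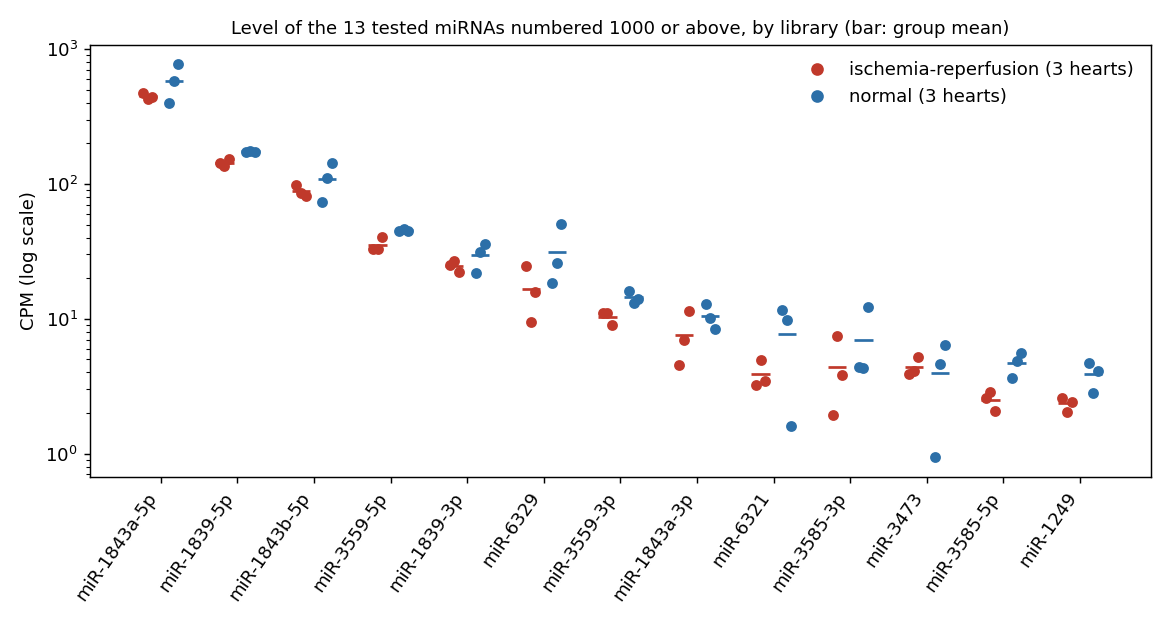
Each point is the CPM of a tested member in 1 library, on a log axis, with ischemia-reperfusion hearts to the left of normal hearts and a bar at each group mean. Group means span from 584 CPM for miR-1843a-5p in normal hearts to 2.35 CPM for miR-1249 in ischemia-reperfusion hearts. Single points run from 772 CPM (miR-1843a-5p, normal replicate 3) to 0.945 CPM (miR-3473, normal replicate 1). The groups overlap for 8 of the 13 members.

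The Scarna3-derived miR-1843a-5p was the most abundant member in every library. It had 475, 426 and 444 CPM in ischemia-reperfusion hearts, against 399, 583 and 772 CPM in normal hearts, from 734 to 5843 counts. The ischemia-reperfusion hearts lay close together, within the range of the normal hearts, whose spread was wider. The means were 449 ± 24.7 CPM in ischemia-reperfusion hearts and 584 ± 187 CPM in normal hearts (SD, n = 3 each), and the log2 fold change was -0.38 ± 0.25 (SE; edgeR adjusted p = 0.26). Without normal replicate 1, the lowest normal heart, it was -0.68 ± 0.19 and was called lower (edgeR adjusted p = 0.0291). With factors from miRBase-named miRNAs it was -0.028 ± 0.25.

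MiR-1843b-5p, which is listed from a separate hairpin, showed the same order of normal hearts at a lower level. It had 98.4, 85.9 and 81.2 CPM in ischemia-reperfusion hearts, against 73.2, 110 and 142 CPM in normal hearts. The groups overlapped, since normal replicate 1 was the lowest of the 6. The log2 fold change was -0.29 ± 0.26 (SE; edgeR adjusted p = 0.395), and without normal replicate 1 the miRNA was called lower (edgeR adjusted p = 0.0497). That setting called 2 members lower, these 2, where 14.1% of all entries were called lower, and 1 member higher, where 33.6% of all entries were. Since the sequences of miR-1843a-5p and miR-1843b-5p overlap, the 2 lower calls cannot be taken as separate results.

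The ratio of miR-1843b-5p to miR-1843a-5p stayed between 0.183 and 0.207 in the 6 libraries. The most abundant miR-1843b-5p sequence occurs whole in both the Mir1843b and the Scarna3 hairpin, while that of miR-1843a-5p occurs in the Scarna3 hairpin and not in that of Mir1843b. Reads counted for miR-1843b-5p can therefore come from either hairpin, and its level is uncertain for that reason. MiR-1843b-3p, the other arm of Mir1843b, had no listed count in any library. In the sequences below, capitals mark bases that the listed mature form does not have.
miR-1843a-5p, most abundant: tatggaggtctctgtctgactT
miR-1843b-5p, most abundant: atggaggtctctgtctgactt

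The summed level of the 2 endothelial marker miRNAs had the same order among the normal hearts. It was 63557, 57461 and 55658 CPM in ischemia-reperfusion hearts and 59755, 92658 and 117720 CPM in normal hearts. Neither marker had 0 counts over the 6 libraries together. Normal replicate 1 was the lowest and replicate 3 the highest of the normal hearts for the endothelial sum, for miR-1843a-5p and for miR-1843b-5p. The neuronal sum had this order too, with 72.9, 73.7 and 77.3 CPM, as did miR-1839-3p, miR-6329, miR-3585-5p and miR-3473. The remaining marker sums and tested members had other orders, so this order is not particular to the endothelial list. The heart muscle sum ran the other way among normal hearts, with 442303, 280470 and 249121 CPM, beside 194924, 242701 and 301545 CPM in ischemia-reperfusion hearts. The part of these differences between hearts in the members' levels was not tested.

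The 3p arm of the Scarna3 hairpin was far less abundant than its 5p arm. MiR-1843a-3p had 4.53, 6.99 and 11.4 CPM in ischemia-reperfusion hearts and 12.8, 10.1 and 8.46 CPM in normal hearts. The groups overlapped, and the log2 fold change was -0.42 ± 0.45 (SE; edgeR adjusted p = 0.473). The ratio of 5p to 3p counts was 105, 61.0 and 39.0 in ischemia-reperfusion libraries and 31.2, 57.9 and 91.3 in normal libraries, a spread that rests on 7 to 81 counts of the 3p arm.

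Both arms of the Scarna15 hairpin were present in every library, the 5p arm at the higher level. MiR-1839-5p had 144, 136 and 152 CPM in ischemia-reperfusion hearts, against 173, 177 and 174 CPM in normal hearts. Each ischemia-reperfusion heart lay below each normal heart, and both groups were tight. The means were 144 ± 7.76 CPM in ischemia-reperfusion hearts and 175 ± 2.35 CPM in normal hearts (SD, n = 3 each), with a log2 fold change of -0.28 ± 0.14 (SE) that did not pass the test (edgeR adjusted p = 0.165).

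MiR-1839-3p had 25.2, 26.7 and 22.1 CPM in ischemia-reperfusion hearts and 21.9, 31.3 and 36.1 CPM in normal hearts. The groups overlapped, and the log2 fold change was -0.27 ± 0.29 (SE; edgeR adjusted p = 0.464). The 5p arm exceeded the 3p arm by 5.69, 5.11 and 6.88 times in ischemia-reperfusion libraries and by 7.89, 5.66 and 4.83 times in normal libraries. These ratios overlapped between the groups.

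Both arms of miR-3559 were separated between the groups without passing the test. MiR-3559-5p had 33, 32.9 and 40.1 CPM in ischemia-reperfusion hearts, against 44.9, 46.7 and 44.5 CPM in normal hearts (log2 fold change -0.36 ± 0.20 SE, edgeR adjusted p = 0.202). MiR-3559-3p had 11, 11.1 and 8.98 CPM in ischemia-reperfusion hearts, against 16.2, 13.1 and 14.1 CPM in normal hearts (log2 fold change -0.49 ± 0.34 SE, edgeR adjusted p = 0.284). Each ischemia-reperfusion heart lay below each normal heart for either arm. The ratio of 5p to 3p counts was 3.00, 2.96 and 4.46 in ischemia-reperfusion libraries and 2.77, 3.56 and 3.15 in normal libraries, and these overlapped between the groups.

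The 2 arms of miR-3585 had similar levels, with 5p to 3p ratios between 0.389 and 1.33 in the 6 libraries. MiR-3585-5p had 2.59, 2.88 and 2.1 CPM in ischemia-reperfusion hearts, against 3.62, 4.84 and 5.55 CPM in normal hearts, with each ischemia-reperfusion heart the lower. Its log2 fold change of -0.90 ± 0.44 (SE) had the smallest adjusted p of the members by edgeR, 0.15, from 4 to 42 counts a library. MiR-3585-3p had 1.94, 7.40 and 3.80 CPM in ischemia-reperfusion hearts and 4.41, 4.33 and 12.2 CPM in normal hearts. It overlapped between the groups (log2 fold change -0.64 ± 0.66 SE, edgeR adjusted p = 0.464). Leaving out normal replicate 3 gave -0.043, and leaving out ischemia-reperfusion replicate 2 gave -1.23.

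MiR-6329 and miR-6321 had the largest negative log2 fold changes and also wide spreads. MiR-6329 had 24.6, 9.45 and 15.9 CPM in ischemia-reperfusion hearts and 18.3, 25.7 and 50.3 CPM in normal hearts. The groups overlapped through ischemia-reperfusion replicate 1, and the log2 fold change was -0.93 ± 0.51 (SE; edgeR adjusted p = 0.194). Without ischemia-reperfusion replicate 1 it was -1.22 ± 0.51 and without normal replicate 3 it was -0.49 ± 0.50.

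MiR-6321 had 3.24, 4.93 and 3.45 CPM in ischemia-reperfusion hearts and 11.7, 9.81 and 1.59 CPM in normal hearts. Normal replicate 3 was the lowest of the 6 and the other normal hearts were the highest. The log2 fold change was -0.97 ± 0.76 (SE; edgeR adjusted p = 0.337). Without normal replicate 3 it was -1.53 ± 0.49 and just missed the threshold (edgeR adjusted p = 0.0504).

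MiR-1249 was separated at a low level, with 2.59, 2.05 and 2.42 CPM in ischemia-reperfusion hearts, against 4.73, 2.80 and 4.10 CPM in normal hearts (log2 fold change -0.72 ± 0.45 SE, edgeR adjusted p = 0.248). MiR-3473 was the member with a positive value. It had 3.88, 4.11 and 5.18 CPM in ischemia-reperfusion hearts and 0.945, 4.58 and 6.34 CPM in normal hearts, with the lowest and the highest heart both normal. Its log2 fold change of 0.15 ± 0.70 (SE; edgeR adjusted p = 0.876) was -0.32 with upper-quartile factors and -0.38 without normal replicate 1, so its direction was not settled.

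Arms of hairpins cut from another transcript had been listed as a group, with miR-1224, miR-1306 and miR-1839. Of their 5 entries, 4 had counts. The 2 tested were both arms of miR-1839, with a median log2 fold change of -0.28, and neither was called. The list does not hold miR-1843a, whose hairpin RefSeq annotates as Scarna3. MiR-1306 lies within the span of Dgcr8, which encodes the partner of Drosha, at chr11:96213960-96214032 on the plus strand. MiR-1306-5p had 0, 0 and 8 counts in ischemia-reperfusion libraries, against 9, 17 and 17 in normal libraries, which is 0, 0 and 2.76 CPM against 1.42, 2.16 and 2.25 CPM. The highest CPM and the blanks both fell in ischemia-reperfusion hearts. MiR-1306-3p had 2.59, 0 and 0.691 CPM in ischemia-reperfusion hearts and 1.58, 1.91 and 0.793 CPM in normal hearts, which overlapped.

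Without ischemia-reperfusion replicate 3, 627 entries passed the filter and miR-1306-5p was called lower (edgeR adjusted p = 0.0412), as was miR-3102 (edgeR adjusted p = 0.0415). MiR-3102, which was picked out after its values were seen, had 0, 0 and 5 counts in ischemia-reperfusion libraries and 16, 26 and 11 in normal libraries. Both calls set blanks in the shallowest libraries against the normal hearts. The 2 miRNAs entered the test through the normal hearts, where they were high, so these calls are no support for a difference. In that setting 2 members were called lower, where 6.38% of all entries were, and 3 were called higher, miR-1298, miR-3541 and miR-3586-3p, where 36% of all entries were. The 3 called higher entered through the ischemia-reperfusion hearts, where they were high, and their calls are no support either.

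Of 5 entries listed as partners on the strand opposite an older miRNA, 2 had a few counts and none was tested. MiR-3120, opposite miR-214, was not listed in the ischemia-reperfusion libraries and had 5, 5 and 6 counts, or 0.788, 0.637 and 0.793 CPM, in normal libraries. At that level the shallower ischemia-reperfusion libraries would hold too few reads to be sure of a listing, so no difference was detectable at this depth. MiR-3065-5p, opposite miR-338, had 2 counts in ischemia-reperfusion replicate 3 and none listed elsewhere. Of 6 entries listed for the imprinted Dlk1-Dio3 cluster, 1 had counts, miR-1247-3p, with 5 in ischemia-reperfusion replicate 1 and 3 in normal replicate 3. That list does not hold miR-3592, whose RefSeq hairpin overlaps Mir382 of the same cluster and which had 5, 0 and 0 counts in ischemia-reperfusion libraries and 0, 2 and 2 in normal libraries. MiR-3120, miR-3065-5p, miR-1247-3p and miR-3592 were picked out after their values were seen.

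A search of all mature sequences found 4 members with counts that are exactly complementary to an older miRNA over 20 or more bases, and miR-3586-3p was the most abundant of them. It pairs with 21 bases of miR-151-5p, and the 2 sequences are shown because each is the reverse complement of the other there, with the seeds in capitals.
miR-3586-3p: aUACUAGAcugugagcuccucga
miR-151-5p: uCGAGGAGcucacagucuagu
MiR-3586-3p had 22, 7.81 and 1.38 CPM in ischemia-reperfusion hearts, against 0.630, 0.255 and 0.528 CPM in normal hearts, from 34, 19 and 4 counts and from 4, 2 and 4 counts. Each ischemia-reperfusion heart lay above each normal heart, with a wide range among the ischemia-reperfusion hearts. MiR-151-5p lay lower in each ischemia-reperfusion heart than in each normal heart, with 40.1, 44.8 and 42.8 CPM in ischemia-reperfusion hearts and 125, 59.7 and 46.4 CPM in normal hearts (log2 fold change -0.85 ± 0.38 SE, edgeR adjusted p = 0.122).

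MiR-3586-3p was 1 of 36 members with counts that did not pass the filter on low counts. With no filter, 967 entries were tested, 49 of them members. Under that setting 4 members were called higher by edgeR, where 27.5% of all entries were, and none was called lower. They were miR-3586-3p, miR-3541, miR-1298 and miR-6333. All have GRCr8 hairpins on the plus strand except miR-3586-3p, for which RefSeq gave none. MiR-1298 lies within Htr2c, a serotonin receptor gene, at chrX:115556947-115557085. MiR-3541 lies within Clk2, the gene of a kinase that phosphorylates splicing factors, at chr2:176878607-176878710. MiR-6333 lies within the spans of Nipal3 and Stpg1 at chr5:153009066-153009176.

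MiR-3586-3p had a log2 fold change of 4.23 ± 0.93 (SE; edgeR adjusted p = 0.00133) with no filter. It was also called higher without ischemia-reperfusion replicate 3 (edgeR adjusted p = 0.00231), without normal replicate 1 (0.0365) and without normal replicate 3 (0.044), and missed the threshold without normal replicate 2 (0.0516). In the settings with a filter it entered through the ischemia-reperfusion hearts, where it was high, so these calls are no support for a difference. Without normal replicate 3, miR-1298 was called higher as well (edgeR adjusted p = 0.0282), which made 2 members, where 35% of all entries were. MiR-1298 entered by the same route and was set there against normal libraries with no listed count, so that call is no support either.

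MiR-3541 had 12, 4 and 4 counts in ischemia-reperfusion libraries, against 0, 0 and 2 in normal libraries, which is 7.77, 1.64 and 1.38 CPM against 0, 0 and 0.264 CPM (edgeR adjusted p = 0.0121 with no filter). MiR-1298 had 5, 10 and 3 counts in ischemia-reperfusion libraries, against 0, 0 and 2 in normal libraries, which is 3.24, 4.11 and 1.04 CPM against 0, 0 and 0.264 CPM (edgeR adjusted p = 0.0192 with no filter). For both, each ischemia-reperfusion heart lay above each normal heart. The share of all entries separated upward is not given here, so this separation, like that of miR-3586-3p, does not set them apart. With no filter, 27.5% of all entries were called higher. MiR-6333 had 6, 8 and 0 counts in ischemia-reperfusion libraries and none listed in normal libraries (edgeR adjusted p = 0.0148 with no filter), so its groups overlapped at 0. MiR-6333 was picked out after its values were seen.

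**Figure D4:**
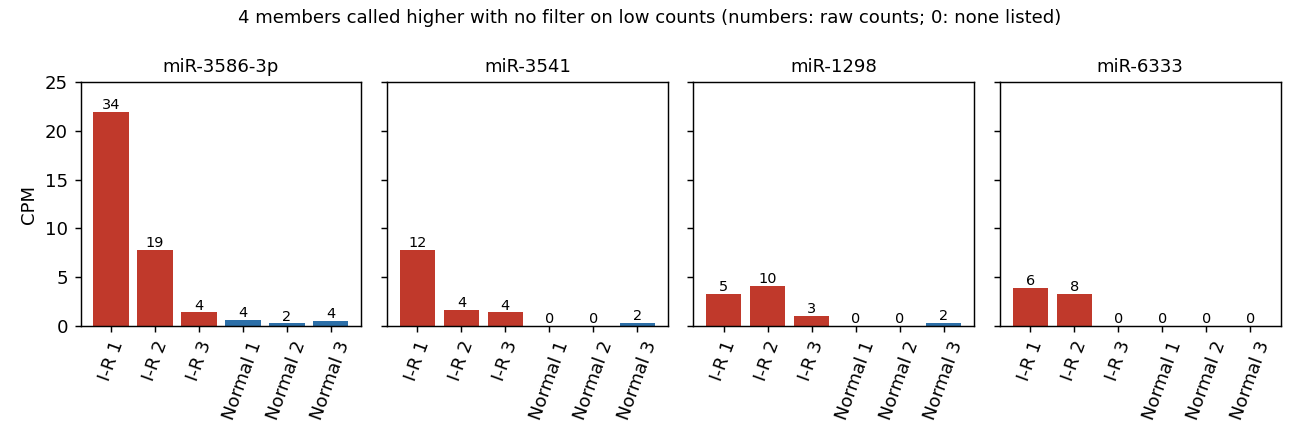
Bars give the CPM of 4 members in each library, ischemia-reperfusion (I-R) to the left and normal to the right, with raw counts above the bars. Ischemia-reperfusion replicate 1 or 2 is the highest library in each panel, and no count exceeds 34.

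Among these 4 members, miR-1298 differed from the others in the sequence behind its counts. Its most abundant sequence was the listed mature form, which gave 45.0% of its counts and occurs whole in its RefSeq hairpin. The most abundant sequence of the others was 15 to 17 bases long. It gave 90.9% of the counts of miR-3541, 42.9% of those of miR-6333 and 10.4% of those of miR-3586-3p, so most counts of miR-6333 and miR-3586-3p were of other sequences. The most abundant sequences of miR-3541 and miR-6333 did not occur in their own hairpins, and miR-3586-3p had none to compare. In the lines below, capitals mark the seed in a mature sequence, and bases that differ from the mature form or lie beyond it in the most abundant sequence.
miR-1298: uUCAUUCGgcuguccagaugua
miR-3541: uCCCUCCCccucacugca
miR-3541, most abundant: CTCtccctccccTtc
miR-6333: uAGGCUGGacuugaacagcccgc
miR-6333, most abundant: aggctAgacttgaaca
miR-3586-3p, most abundant: actagactgtgagctcT

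Most abundant sequences of 18 bases or fewer were found for 13 of the 49 members with counts (26.5%), 13 of the 450 miRNAs numbered below 1000 (2.89%) and 210 of the predicted entries with counts (45.2%). This length limit was chosen after the sequences had been seen. The classes were not matched for level, whose median was 0.626 CPM for the members and 6.50 CPM for miRNAs numbered below 1000. None of the 13 members was tested, and some, such as miR-1912-5p and miR-6322, had 2 counts in all. For those, the most abundant sequence rests on 2 counts. Of the 13 members, 11 had a RefSeq hairpin, and it held the whole sequence for 2 of them. Of the 8 members listed in ischemia-reperfusion libraries alone, 5 were of this short kind, and of the 12 listed in normal libraries alone, 3 were.

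The 13 members with short sequences summed over all their isoforms to 42.7, 18.5 and 2.76 CPM in ischemia-reperfusion hearts and 0.630, 1.27 and 3.70 CPM in normal hearts. MiR-3586-3p alone supplied 22 of the 42.7 CPM and 7.81 of the 18.5 CPM, and its short sequence made up 3 of 34 and 0 of 19 counts in those libraries. The groups overlapped, since ischemia-reperfusion replicate 3 lay below normal replicate 3 (exact permutation test, two-sided p = 0.2). The share of predicted entries had its highest value, 13.6%, and its next, 7.87%, in the same ischemia-reperfusion replicates 1 and 2. The liver marker miR-122 had 867, 510 and 79.1 CPM in ischemia-reperfusion hearts and 82.5, 38.5 and 30.4 CPM in normal hearts, again highest in those 2 replicates. The part of either in these members' counts was not tested. The 36 members with longer sequences summed to 838, 764 and 807 CPM in ischemia-reperfusion hearts and 799, 1036 and 1286 CPM in normal hearts.

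Members with longer sequences mostly matched their hairpins. Of the 36, 31 had a RefSeq hairpin, and the most abundant sequence occurred whole in it for 21 (67.7%). For 9 (29%) it matched except at its last base, which was T in 9 of 9, and for miR-1839-3p the RefSeq hairpin ended 1 base early. Among 357 lower-numbered miRNAs of that length with a hairpin, 274 matched whole (76.8%) and 68 matched except at the last base (19%), which was T in 61. The classes were not matched for level here either. The lines below show miRNAs with a T added beyond or in place of the hairpin's base, in capitals, and those where the added base is that of the hairpin, miR-1839-5p and miR-3585-3p.
miR-3559-3p, most abundant: atgtagtactgagtctgtcgtgT
miR-1306-5p, most abundant: ccacctcccctgcaaacgtcT
miR-1839-5p, most abundant: aaggtagatagaacaggtcttgT
miR-3585-3p, most abundant: tgaacggcccttgttgtgaGG

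The listed mature sequence was seldom the most abundant form. It was so for 10 of the 49 members with counts (20.4%), against 174 of the 450 miRNAs numbered below 1000 (38.7%). The classes were not matched for level, and some members, such as miR-6322, had only 2 counts in all. For 27 members the most abundant sequence began at the listed 5′ base without a mismatch, which leaves the seed as listed, and for 10 it differed by 1 extra base at the 3′ end alone. The exact listed sequence made up 14.1%, 15.1% and 17% of the members' counts in ischemia-reperfusion libraries and 17.4%, 14.6% and 13.1% in normal libraries. The means of 15.4% ± 1.45 in ischemia-reperfusion hearts and 15.0% ± 2.16 in normal hearts (SD, n = 3 each) overlapped (exact permutation test, two-sided p = 0.8). For miRNAs numbered below 1000 the means were 21.6% ± 1.53 in ischemia-reperfusion hearts and 21.8% ± 4.29 in normal hearts (SD, n = 3 each).

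**Figure D5:**
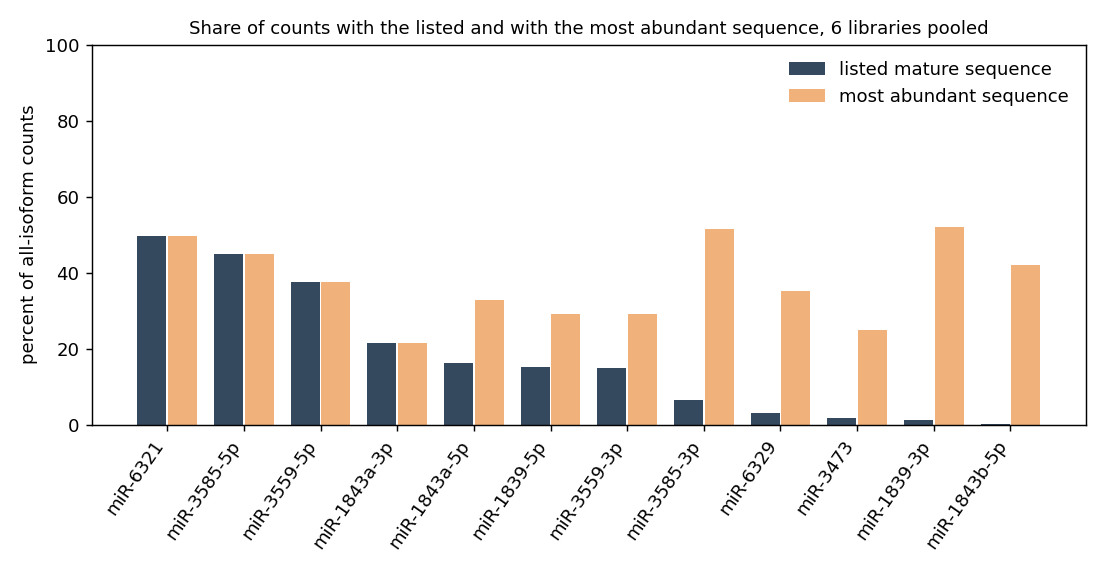
Paired bars give the percent of all-isoform counts, pooled over the 6 libraries, that carried the listed mature sequence and the most abundant sequence, for the 12 members with at least 100 counts. The bars are equal where the listed form is the most abundant, as for miR-6321 at 49.5%, and far apart for miR-1843b-5p, at 0.0667% and 41.9%.

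The share of the exact sequence ranged widely among the 12 members with at least 100 counts. It was highest for miR-6321 (49.5%), miR-3585-5p (45.0%) and miR-3559-5p (37.6%). It was lowest for miR-1843b-5p (0.0667%), miR-1839-3p (1.21%) and miR-3473 (1.65%). MiR-1843b-5p had 2 exact counts in all, both in normal replicate 3, and its most abundant sequence ended 2 bases before the listed 3′ end. A count of exact sequences alone would therefore have left out miR-1843b-5p and nearly all of miR-1839-3p.

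The authors' deposited table of their own comparison held 16 of the members among its 589 rows. In the authors' deposited table, none of the 16 passed a false discovery rate of 0.05, and folds of ischemia-reperfusion over normal ran from 0.735 for miR-6329 to 1.27 for miR-1298. The authors' deposited table gave miR-1298 a p-value of 0.039 and a false discovery rate of 0.239, and no other member a p-value under 0.05. These folds are ratios of group means after 10 was added, which draws the fold of a low miRNA towards 1.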

How the data were processed

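Small RNA from hearts was sequenced, per the labels' protocols, after Trizol extraction, ligation of adaptors at both ends, PCR and size selection. The deposited table gives raw tag counts, per the file headers, in 3 sets of columns (exact mature, most abundant and all isoforms), in 1257 rows for 1191 mature IDs. Novoalign 2.07.11 was used, per the submitters' processing notes; the sources used here do not give its role, the genome build or the miRBase release. The authors' deposited comparison holds group means as a score with 10 added, the fold (ratio) of those means, and a p-value with its false discovery rate. The authors' normalized table was not used. Blank cells were read as 0, and the smallest count listed was 2.

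All-isoform counts were analysed, with 1 row per ID, the row with the highest total; 5 member IDs are listed with 2 precursors. Total counts ranged from 1376947 to 8429988 per library. All named and predicted entries were fitted together in R 4.3.3 with edgeR 4.0.16 (filterByExpr, minimum count 10; TMM; robust quasi-likelihood test; Benjamini-Hochberg adjustment over all entries tested, threshold 0.05). Each SE was taken as the size of the log2 fold change over the root of its F statistic. CPM use TMM-scaled library sizes. Single values were compared by two-sided exact permutation tests over hearts. Alternatives were DESeq2 1.42.0, limma-voom 3.58.1, other scaling factors, no filter, other count columns, a stricter number limit, a replicate block and leaving out each heart. Mature sequences were matched by name to RefSeq (GRCr8). The fit was tested on simulated data.

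The members and lists were chosen with earlier results of these data known. Named with values are members past the threshold, the 15 with the highest mean CPM, the 3 largest log2 fold changes in each direction, the 3 highest and 3 lowest exact-sequence shares among members with at least 100 counts, and list members with at least 10 counts in 1 library; any other member named was picked with its values in view. No library correlated best with the library of its own number in the other group. This check on 3 numbers cannot exclude a pairing, and the main fit treated the hearts as unpaired.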

Additional observations from a re-analysis of the deposited data

How the results depend on the processing

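No member was called with RLE or total-count factors, factors from named miRNAs, named miRNAs fitted alone, DESeq2, limma-voom, exact or most abundant sequence counts, rows summed over precursors, or members from number 3000. With no filter 4 were called higher, and with upper-quartile factors 5 were called lower. Leaving out 1 heart at a time gave 0 to 3 called higher and 0 to 2 called lower. The alternative that counts the 3 left-out entries as members, chosen after seeing the data, gave 2 called higher. The median log2 fold change was -0.89 with upper-quartile factors, -0.20 with total counts, -0.12 with factors from named miRNAs, -0.081 with named miRNAs alone, 0.063 with exact counts (6 members tested), -0.17 with the most abundant sequence, and -0.64 from number 3000. It ran from -0.55 to -0.20 when 1 heart was left out, the last without normal replicate 3. The difference in the members' share of counts, -0.00602 percentage points, was 0.00213 over named miRNAs, 0.00256 with exact counts, 0.0147 with the left-out entries, and -0.0175 to 0.00399 with 1 heart left out. The exact-sequence difference of 0.378 points ran from -0.581 to 1.54 with 1 heart left out, negative without ischemia-reperfusion replicate 3 or normal replicate 3. The thinned number of members with 10 counts differed by 0, by -0.5 to 0.5 with 1 heart left out, and by 3.0 at a minimum of 2 counts. The causes were not tested. With a replicate block, 0 members were called and the median was -0.48. Deviations of same-numbered hearts correlated at -0.236, 0.0123 and -0.161, which shows no pairing by number but cannot exclude one. Depth is a further limit, since 59 members had no listed count and 36 had too few for the test.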
